A study of Homo sapiens with 20 samples.

Results

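HEL cells given the RSK inhibitor BI-D1870 together with the phosphatase inhibitor BCI were compared with HEL cells given the solvent DMSO. HEL is a human erythroleukaemia cell line that carries the activating V617F mutation of the kinase JAK2, and every group described here carries it. The comparison rests on 4 of the 20 libraries of the series, chosen by their labels alone: 2 of cells held in 10 µM BI-D1870 and 1 µM BCI for 24 h, called the pair below, and 2 of cells held in DMSO for 24 h. Another 2 libraries, of cells given 10 µM BI-D1870 alone for 24 h, belong to the same count table. They served as a second control, against which the effect of adding BCI was tested. Cells given 1 µM BCI alone are in another table, with their own DMSO libraries, and the labels put them at 4 h and at 48 h. The headings of that table give 24 h for the libraries labelled 48 h. The labels were followed, so BCI alone at 24 h is not analysed here and whether the effects of both compounds add up cannot be tested. The cells of all groups grew in RPMI medium with fetal bovine serum, and being 1 cell line they model no other JAK2 mutant cells. The remaining libraries, of parental cells and of cells that persisted under ruxolitinib or fedratinib, were not used here.

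As background, signals from JAK2 run through STAT5 and through the RAS, RAF, MEK and ERK kinases, and the RSK kinases are switched on by ERK. DUSP6 and DUSP1 are phosphatases that remove the activating phosphates from ERK and other MAP kinases, and BCI inhibits both. ERK raises early genes such as EGR1 and, as feedback, DUSP6 itself, while STAT5 raises PIM1, CISH and MYC. HEL cells are erythroid and megakaryocytic in character and express fetal and embryonic globins as well as platelet genes. BI-D1870 is known to act on further kinases besides RSK, and phosphorylation was not measured here.

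The 6 libraries of the table held 54141164 to 70128404 gene counts. Erythroid and megakaryocytic markers fixed for HEL cells (GATA1, TAL1, NFE2, HBG1, HBG2, ITGA2B and KIT) were all present in every library. Of the markers of other cells, CD3D, MS4A1, ELANE and KRT5 had 0 counts in all 6 libraries, whereas the lymphoid genes CD2 and CD79A and the myeloid gene LYZ had counts in all. Mitochondrially encoded genes took 5.28 to 5.72% of the counts under the pair, 6.17 to 6.20% under BI-D1870 alone and 3.58 to 3.64% under DMSO. Both libraries of each group lay together on the first principal component of log2 CPM, which held 59.9% of the variance and set both drug groups apart from DMSO. On the second component (11.7%) replicate 1 of BI-D1870 stood apart, at 43.0, against 1.58 for replicate 2, with the pair at -17.9 and -28.4 and DMSO at 11.98 and -10.2. The labels state duplicate treatment and do not say whether the duplicates were separate experiments, and the spread behind every p-value is that between these libraries, which may be technical. The biological coefficient of variation was 5.01%. Because RNA of whole cultures was measured, fewer cells of a type and less RNA per cell cannot be told apart in any result below.

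After 24 h the pair had moved a large share of all genes, most of them by small amounts. Of 21328 genes, 9992 were called (46.8%; edgeR quasi-likelihood test, Benjamini-Hochberg adjusted p under 0.05). Higher calls numbered 4818 (22.6%) and lower calls 5174 (24.3%). The change was under 2-fold for 7648 of the called genes. At 2-fold or more the falls outnumbered the rises, with 1543 genes lower and 801 higher, and at 4-fold or more 531 were lower and 187 higher. The median change over all genes tested was -0.0054 on the log2 scale. When a fold change of at least 1.5 was built into the test, 2343 genes were called, 846 higher and 1497 lower. Counts of a gene list are over its tested members; 85 listed genes with too few counts were left out. Against these shares the count of any gene group has to be read, since close to 1 gene in 4 was called in each direction. Most lists are of protein-coding genes, and among the 13937 of these tested the shares were larger, 29.7% higher and 31.3% lower. Levels below are CPM (counts scaled to a common library size by TMM), given for library 1 and then library 2 of a group, and changes are log2 fold changes with their standard error (SE), the pair over DMSO unless stated, with n = 2 libraries per group.

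**Figure D1:**
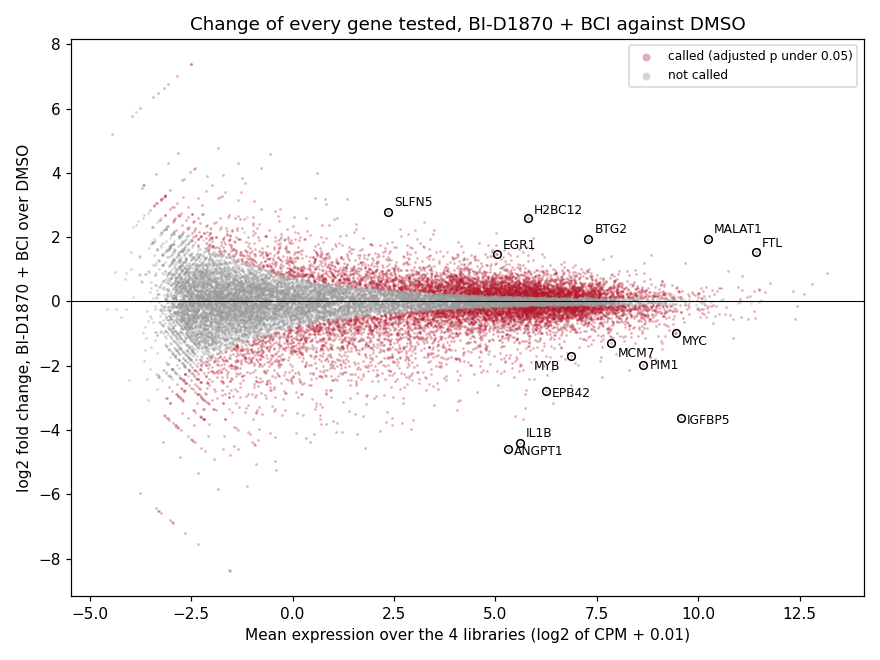
Each point is one of the 21328 genes tested, with its mean level over the 4 libraries on the horizontal axis (log2 of CPM + 0.01) and its log2 fold change, the pair over DMSO, on the vertical axis; red points were called at adjusted p under 0.05 and circles mark genes named in the text. Called genes lie on both sides of 0, and ANGPT1 and IL1B sit lowest among the circled genes, at -4.60 and -4.41.

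Named by size were called genes that averaged 4 CPM or more and whose libraries did not overlap between the pair and DMSO. Several of the 15 largest falls were in secreted factors and cell surface molecules. ANGPT1, the ligand that activates the TIE2 receptor (ENSG00000154188, chr8:107249482-107498055), had 3.09 and 3.22 CPM under the pair and 79.0 and 73.7 CPM under DMSO (-4.60, SE 0.084, adjusted p = 2.3e-18). IL1B, the inflammatory cytokine interleukin 1 beta (ENSG00000125538, chr2:112829751-112836903), had 4.66 and 4.09 CPM under the pair and 98.3 and 87.8 CPM under DMSO (-4.41, SE 0.083, adjusted p = 3.2e-18). IGFBP5, a secreted binder of insulin-like growth factors (ENSG00000115461, chr2:216672105-216695525), had 111 and 117 CPM under the pair and 1422 and 1403 CPM under DMSO (-3.63, SE 0.042, adjusted p = 2.1e-21). In each of the 3 the groups were far apart and the replicates of a group close together. The other 12 genes picked by size of fall were the second angiopoietin ANGPT2 (-3.84), the growth factor HGF (-3.76), the interleukin 9 receptor IL9R (-4.04), the lymphocyte receptor CD6 (-3.78), the transglutaminase TGM5 (-3.96), the membrane protein MS4A4A (-3.67), the unconventional myosin MYO3B (-3.65), the interferon-inducible GTPase GBP1 (-3.63), the mitochondrial cholesterol importer STAR (-3.56), the kinase-like gene PSKH2 (-3.44), the host transcript of microRNA 223 MIR223HG (-3.39) and the orphan receptor GPR85 (-3.32). All 15 were also low under BI-D1870 alone, and against that group 3 of them were called, IL1B, GBP1 and STAR. IL1B was higher under the pair than under BI-D1870 alone (0.93, SE 0.12, adjusted p = 7.6e-05) and GBP1 and STAR were lower (-0.94 and -0.34), the call of GBP1 being lost without either replicate of BI-D1870 or replicate 2 of the pair, and that of STAR without replicate 2 of BI-D1870 or either replicate of the pair.

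By the same rule, the 15 largest rises were smaller than the 15 largest falls. SLFN5, a member of the interferon-inducible Schlafen family (ENSG00000166750, chr17:35243036-35273655), had 9.06 and 8.62 CPM under the pair and 1.53 and 1.06 CPM under DMSO (2.77, SE 0.16, adjusted p = 1.9e-11). H2BC12, a histone H2B gene (ENSG00000197903, chr6:27146418-27146798), had 99.0 and 91.5 CPM under the pair and 15.3 and 16.4 CPM under DMSO (2.58, SE 0.062, adjusted p = 7.2e-17). BTG2, an antiproliferative gene induced by p53 (ENSG00000159388, chr1:203305491-203309602), had 246 and 251 CPM under the pair and 66.1 and 64.0 CPM under DMSO (1.93, SE 0.042, adjusted p = 1.6e-17). The abundant nuclear noncoding RNA MALAT1 (ENSG00000251562, chr11:65497688-65506516) had 1857 and 1972 CPM under the pair and 427 and 567 CPM under DMSO, with the DMSO libraries further apart than those of the pair (1.95, SE 0.078, adjusted p = 1.6e-13). The remaining genes picked by size of rise were the histone gene H4C9 (2.48), the p53-induced oxidoreductase gene TP53I3 (2.27), AC240274.1 (2.23), the helicase gene HELZ2 (2.22), FAM13B (2.13), the talin gene TLN2 (2.11), the anion transporter SLC26A1 (2.09), the phospholipase PLCD3 (2.02), the netrin receptor UNC5B (1.99), the cell cycle regulator SERTAD1 (1.96) and the kinase DMPK (1.95). SLC26A1, UNC5B, H2BC12, MALAT1 and BTG2 were also called higher than under BI-D1870 alone. UNC5B had 95.0 and 99.5 CPM under the pair, 66.3 and 65.2 CPM under BI-D1870 alone and 22.6 and 26.4 CPM under DMSO (0.57, SE 0.057, adjusted p = 5.7e-06 against BI-D1870). Of these 5 calls against BI-D1870, that of UNC5B held without each single library. That of SLC26A1 was lost without either replicate of BI-D1870 or replicate 2 of the pair, that of H2BC12 without either replicate of BI-D1870 or replicate 1 of the pair, that of MALAT1 without any one library of both drug groups, and that of BTG2 without replicate 2 of BI-D1870.

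The tested genes of the compounds' own targets moved by less than 2-fold. RPS6KA1, the gene of the kinase RSK1 (ENSG00000117676, chr1:26529761-26575030), had 372 and 380.1 CPM under the pair, 354 and 348 CPM under BI-D1870 alone and 251 and 264 CPM under DMSO (0.55, SE 0.039, adjusted p = 6.2e-10). RPS6KA3, the gene of RSK2 (ENSG00000177189, chrX:20149911-20267519), had 97.3 and 96.8 CPM under the pair, 108 and 103 CPM under BI-D1870 alone and 116 and 114 CPM under DMSO (-0.25, SE 0.044, adjusted p = 9.8e-05). The first rose and the second fell, and neither was called against BI-D1870 alone. RPS6KA2, the gene of RSK3, had 2 to 13 counts per library and could not be tested. Of 6 tested genes of the list of RSK, MSK and S6 kinases, 3 rose and 3 fell, with a median of 0.10. The falls of the MSK genes RPS6KA4 (-0.14) and RPS6KA5 (-0.31) were small. Both calls were lost without DMSO replicate 2 or without replicate 2 of the pair, which leaves 1 fall, and that of RPS6KA4 also without DMSO replicate 1, replicate 2 of BI-D1870 or replicate 1 of the pair. DUSP6 (ENSG00000139318, chr12:89347232-89353271) had 34.5 and 33.3 CPM under the pair, 30.9 and 28.3 CPM under BI-D1870 alone and 22.1 and 22.6 CPM under DMSO (0.60, SE 0.066, adjusted p = 2.8e-07), so both libraries of the pair lay above both of DMSO. DUSP1 (ENSG00000120129, chr5:172768090-172771195) had 8.47 and 9.92 CPM under the pair, 9.15 and 8.78 CPM under BI-D1870 alone and 8.28 and 7.60 CPM under DMSO, and its change did not pass the test (0.21, SE 0.11, adjusted p = 0.13).

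Among the other MAP kinase phosphatases, DUSP10, which acts on p38 and JNK, rose (0.69), while the nuclear ERK phosphatase DUSP2 (-1.16), DUSP7 (-0.40) and DUSP16 (-1.07) fell. In all, 3 of 9 tested phosphatases rose and 3 fell, with a median of 0.14. The cascade itself showed 6 rises and 5 falls among 14 genes, with a median of 0.078. The lower count was 3 without DMSO replicate 2 and without either replicate of the pair. The kinase genes MAP2K2 (0.44) and ARAF (0.38) rose, and MAPK3, which encodes ERK1 (-0.48), the exchange factor SOS1 (-0.45) and the adaptor SHC1 (-0.45) fell. SOS1 was also lower than under BI-D1870 alone (-0.23, SE 0.044, adjusted p = 0.0033), a call lost without replicate 1 of BI-D1870 or replicate 2 of the pair.

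Genes that ERK is known to raise split into a group that rose and a group that fell. EGR1, an early transcription factor (ENSG00000120738, chr5:138465490-138469315), had 52.5 and 44.5 CPM under the pair, 37.6 and 35.5 CPM under BI-D1870 alone and 17.1 and 17.4 CPM under DMSO (1.49, SE 0.075, adjusted p = 4.1e-12). Its 3 groups did not overlap, and the pair was called above BI-D1870 as well (0.41, SE 0.071, adjusted p = 0.0016), although that call was lost without replicate 2 of BI-D1870 or replicate 1 of the pair. JUN, a subunit of AP-1 (ENSG00000177606, chr1:58780788-58784327), had 28.5 and 26.3 CPM under the pair, 51.9 and 53.5 CPM under BI-D1870 alone and 8.44 and 8.12 CPM under DMSO (1.72, SE 0.074, adjusted p = 3.5e-13). JUN was therefore above DMSO under the pair, but below the level under BI-D1870 alone (-0.95, SE 0.064, adjusted p = 1.9e-08). FOS (2.67) and FOSB (1.73) also rose, both to low levels, with 3.16 and 3.29 CPM under the pair and 1.08 and 0.868 CPM under DMSO for FOSB. Of 26 tested immediate-early and AP-1 genes, 13 rose and 3 fell, with a median of 0.45; without replicate 2 of the pair the lower count was 1.

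In the list of ERK feedback and target genes the falls prevailed: 5 of 23 rose and 10 fell, with a median of -0.39. Without replicate 2 of the pair the higher count was 3. ETV4, a PEA3 family transcription factor (ENSG00000175832, chr17:43527844-43579620), had 10.3 and 9.92 CPM under the pair, 7.90 and 8.21 CPM under BI-D1870 alone and 49.5 and 41.5 CPM under DMSO (-2.17, SE 0.086, adjusted p = 1.3e-13). Its relative ETV1 (-1.77) and the feedback inhibitor SPRY1 (-1.90) fell too, whereas ETV5 rose (0.52). The cytokine LIF (-2.93) and the cyclin gene CCND1 (-2.48) fell by the most in this list. CREB target genes showed no common direction, with 3 rises and 3 falls among 12 and a median of 0.065; without replicate 2 of the pair 1 fell. The CREB coactivator CRTC1 (1.17) and the kinase SIK1 (1.07) rose, and the phosphodiesterase PDE4D fell (-1.04).

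**Figure D2:**
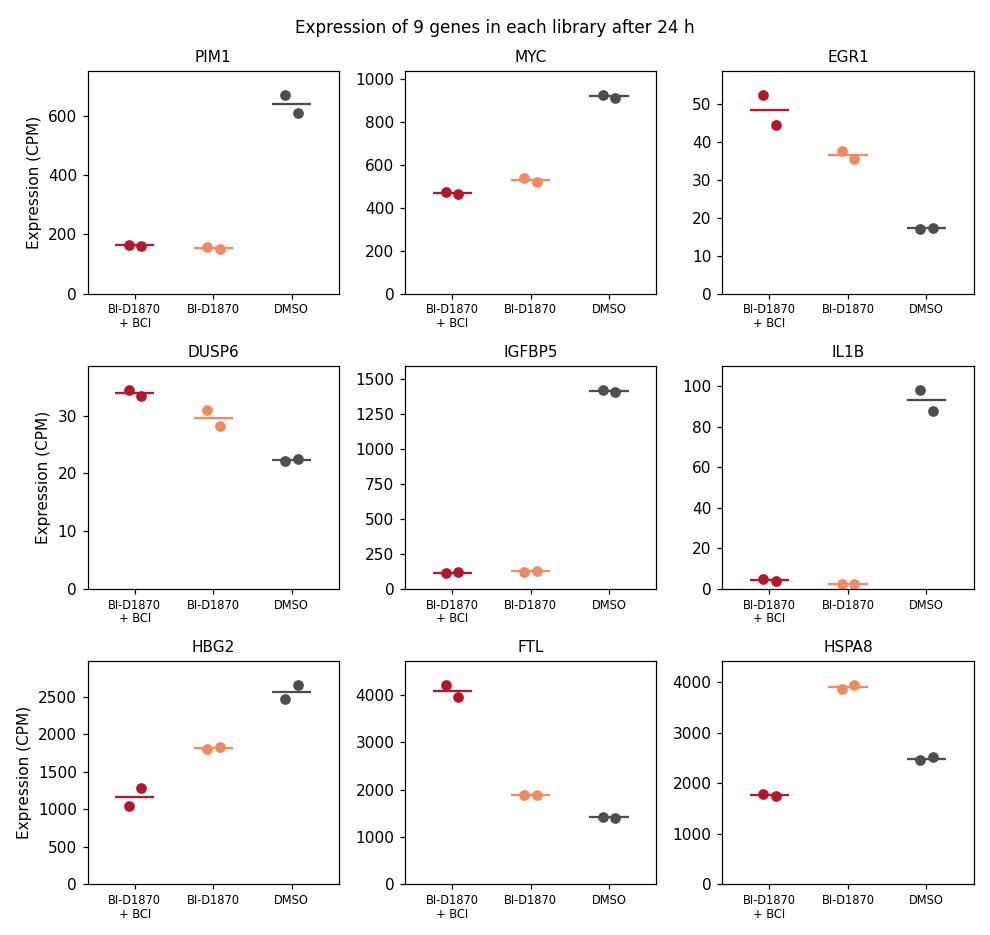
Each panel shows one gene in CPM on an axis that starts at 0, with a point for each of the 2 libraries of a group and a bar at their mean; groups run from BI-D1870 + BCI through BI-D1870 to DMSO. PIM1, MYC, IGFBP5, IL1B and HBG2 lie below DMSO under the pair, EGR1, DUSP6 and FTL lie above it, and HSPA8 is lowest under the pair and highest under BI-D1870 alone.

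JAK2 itself did not pass the test against DMSO, while several genes that STAT5 is known to raise did. JAK2 (ENSG00000096968, chr9:4984390-5128183) had 322 and 307 CPM under the pair, 366 and 359.6 CPM under BI-D1870 alone and 323 and 301 CPM under DMSO (0.011, SE 0.042, adjusted p = 0.87), and it was lower than under BI-D1870 alone (-0.21, SE 0.042, adjusted p = 0.0061). That call was lost without either replicate of BI-D1870 or replicate 2 of the pair. PIM1, a survival kinase (ENSG00000137193, chr6:37170203-37175426), had 164 and 162 CPM under the pair, 159 and 152 CPM under BI-D1870 alone and 671 and 608 CPM under DMSO (-1.97, SE 0.046, adjusted p = 5.7e-17). The difference in PIM1 between the pair and BI-D1870 alone did not pass the test (0.066, SE 0.046, adjusted p = 0.53). CISH, a feedback inhibitor of cytokine receptors (ENSG00000114737, chr3:50606490-50611831), had 39.3 and 41.5 CPM under the pair, 41.5 and 38.3 CPM under BI-D1870 alone and 48.2 and 47.6 CPM under DMSO, a small fall (-0.24, SE 0.058, adjusted p = 0.0017). MYC (ENSG00000136997, chr8:127735434-127741434) had 476 and 463 CPM under the pair, 538 and 519 CPM under BI-D1870 alone and 928 and 912 CPM under DMSO (-0.97, SE 0.037, adjusted p = 6.9e-14), and its level under BI-D1870 alone lay between the other groups. CCND2, a D-type cyclin gene (ENSG00000118971, chr12:4273772-4305350), had 81.0 and 84.6 CPM under the pair, 114 and 105 CPM under BI-D1870 alone and 308 and 294 CPM under DMSO (-1.86, SE 0.047, adjusted p = 1.7e-16), and the pair lay below BI-D1870 alone (-0.41, SE 0.047, adjusted p = 3.1e-05). The cell cycle inhibitor CDKN1A rose (1.43), and the cytokine OSM fell (-1.75). Of 16 tested STAT5 target genes, 6 rose and 8 fell, with a median of -0.088, so the list as a whole had no common direction.

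Pathway genes of JAK and STAT showed 9 rises and 4 falls among 19, with a median of 0.018. STAT5A had 258 and 264 CPM under the pair, 272 and 262 CPM under BI-D1870 alone and 521 and 518 CPM under DMSO (-0.99, SE 0.038, adjusted p = 7.9e-14), and STAT5B fell as well (-0.69). The shared receptor chain CSF2RB fell (-1.33), while the erythropoietin receptor EPOR (0.71), the receptor chain IL6ST (0.93) and the JAK2 inhibitor SH2B3 (0.94) rose. In the MYC network 4 of 12 genes rose and 7 fell, with a median of -0.17. MYCN had 0.338 and 0.309 CPM under the pair, 0.337 and 0.378 CPM under BI-D1870 alone and 5.85 and 5.45 CPM under DMSO (-4.12, SE 0.24, adjusted p = 3.4e-11), MYCL fell (-1.70), and the MYC antagonist MXD4 rose (1.45).

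Most genes of DNA replication fell. Of 40 tested, 28 fell (70.0%, against 24.3% of all genes and 31.3% of protein-coding genes) and 2 rose, with a median of -0.30. MCM7, a subunit of the replicative helicase (ENSG00000166508, chr7:100092728-100101940), had 133 and 136 CPM under the pair, 229 and 226 CPM under BI-D1870 alone and 332 and 325 CPM under DMSO (-1.29, SE 0.039, adjusted p = 2.8e-15). MCM7 was lower under the pair than under BI-D1870 alone (-0.76, SE 0.039, adjusted p = 3.2e-10), a call that none of MCM2 to MCM6 reached. MCM2 had 252 and 266 CPM under the pair, 259.7 and 259.5 CPM under BI-D1870 alone and 568 and 572 CPM under DMSO (-1.14, SE 0.039, adjusted p = 1.6e-14), and the drug groups overlapped. MCM5 (-1.07), MCM3 (-0.92), MCM4 (-0.90) and the polymerase subunit POLE2 (-0.97) fell by similar amounts.

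Mitosis genes were more mixed. Of 41, 23 fell and 9 rose, with a median of -0.16. The proliferation marker MKI67 had 492 and 518 CPM under the pair, 488 and 468 CPM under BI-D1870 alone and 838 and 804 CPM under DMSO (-0.70, SE 0.04, adjusted p = 2e-11), the separase ESPL1 fell (-0.81), and CDC20, the activator of the anaphase-promoting complex, rose (0.44). Among D cyclins, CDKs and their inhibitors, 4 of 19 rose and 11 fell, with a median of -0.22; the lower count was 7 without replicate 2 of the pair. CDK6 fell (-0.69), and CCND3, the third D-type cyclin gene, had 805 and 820.1 CPM under the pair and 781 and 769.9 CPM under DMSO, a difference that did not pass the test (0.067, SE 0.035, adjusted p = 0.13). In the list of cytokinesis and tubulin genes 7 of 17 rose and 6 fell, with a median of -0.044. Its tubulin genes were mixed: TUBB2A (1.55), TUBB4B (1.43) and TUBB2B (1.28) rose, and TUBA4A (-0.55) and TUBA1B (-0.16) fell. The septin SEPTIN9 fell (-0.65).

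Replication-dependent histone genes rose. Of 26 tested, 14 rose and 2 fell, with a median of 0.61; the lower count was 0 without DMSO replicate 2 and 1 without replicate 1 of the pair. H2BC12 (above) led them, and H2BC5 (1.74), H2BC11 (1.63) and H2AC6 (1.55) rose too. H2AC6 had 10.8 and 10.4 CPM under the pair, 18.1 and 16.8 CPM under BI-D1870 alone and 3.62 and 3.60 CPM under DMSO, so the pair lay between the other groups (-0.72, SE 0.093, adjusted p = 8.5e-05 against BI-D1870). Histone genes are near copies of each other and most of their RNA lacks a poly(A) tail, so these counts depend on a library kit that is not given in the sources used here.

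Genes of cell death and arrest rose more often than they fell. In the p53 target list 10 of 23 rose and 4 fell, with a median of 0.13. Besides BTG2 and TP53I3, the p53-induced genes TP53INP1 (1.30) and TIGAR (1.75) rose. The death receptor FAS (-1.50) and the p53 antagonist MDM2 (-0.41) fell. In the BCL2 family 8 of 16 rose and 1 fell, with a median of 0.40. MCL1, a survival protein (ENSG00000143384, chr1:150574551-150579738), had 313 and 307 CPM under the pair, 303 and 302 CPM under BI-D1870 alone and 175 and 182 CPM under DMSO (0.80, SE 0.039, adjusted p = 2.6e-12). The death-promoting members BCL2L11 (0.60), BAK1 (0.60) and BAD (0.61) rose by similar amounts, and BCL2 itself fell (-0.93).

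Genes of the translation machinery did not share 1 direction. Of 30 ribosome biogenesis genes 17 fell and 1 rose (NOP56, 0.43), with a median of -0.18; without DMSO replicate 2 the higher count was 3. The nucleolar proteins FBL (-0.66) and NCL (-0.39) fell. Of 16 aminoacyl-tRNA synthetase genes 13 fell and 2 rose, with a median of -0.35, and VARS1, the valine enzyme, had 219.6 and 223 CPM under the pair, 223 and 219 CPM under BI-D1870 alone and 436 and 428 CPM under DMSO (-0.97, SE 0.038, adjusted p = 1e-13). Of 50 cytosolic ribosomal protein genes 17 rose and 3 fell, none by more than 0.32 on the log2 scale, and 30 were not called. The share that rose, 34%, was near the 29.7% of all protein-coding genes tested, and the median was 0.057. The lower count there was 5 without DMSO replicate 2 or replicate 1 of the pair and 1 without replicate 2 of the pair. Small nucleolar RNA host genes, many of which are regulated like ribosomal protein genes, rose in 10 of 15 cases and fell in 2, with a median of 0.52. ZFAS1 (1.29), SNHG7 (0.99), SNHG32 (0.98) and GAS5 (0.70) were among them.

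Every tested globin gene fell. All 9 were lower under the pair than under DMSO, with a median of -1.51, and 8 of them were also called lower than under BI-D1870 alone (530 of 21328 genes were called in that direction, 2.48%). That count was 5 without replicate 2 of BI-D1870. HBG2, the fetal gamma globin with the most counts (ENSG00000196565, chr11:5253190-5505605), had 1039.6 and 1281 CPM under the pair, 1809 and 1836 CPM under BI-D1870 alone and 2477 and 2658 CPM under DMSO (-1.15, SE 0.062, adjusted p = 1.2e-11). HBE1, the embryonic epsilon globin (ENSG00000213931, chr11:5268345-5505652), had 108 and 125 CPM under the pair, 201 and 211 CPM under BI-D1870 alone and 508 and 519 CPM under DMSO (-2.14, SE 0.053, adjusted p = 1.1e-16). In both genes the pair was lowest and DMSO highest, without overlap. HBA1, an adult alpha globin gene (ENSG00000206172, chr16:176680-177522), had 204 and 199 CPM under the pair, 469 and 517 CPM under BI-D1870 alone and 512 and 484 CPM under DMSO (-1.30, SE 0.046, adjusted p = 2.6e-14), so BI-D1870 alone overlapped with DMSO and only the pair lay below (-1.29, SE 0.046, adjusted p = 7.8e-13 against BI-D1870). HBA2, whose coding sequence is nearly identical, had 71.2 and 73.4 CPM under the pair, 155 and 173 CPM under BI-D1870 alone and 195 and 191 CPM under DMSO (-1.42, SE 0.049, adjusted p = 1.6e-14; -1.18, SE 0.049, adjusted p = 7.6e-12 against BI-D1870). HBB (-2.98), HBD (-2.02), HBZ (-2.94), HBQ1 (-1.51) and HBG1 (-0.92) fell as well. The split of reads between HBA1 and HBA2 and between HBG1 and HBG2 is uncertain.

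Genes of the red cell membrane fell in 14 of 19 cases and rose in 1, with a median of -0.54; the higher count was 2 without DMSO replicate 2, replicate 2 of BI-D1870 or replicate 1 of the pair. EPB42, which anchors the membrane skeleton (ENSG00000166947, chr15:43197227-43221125), had 19.7 and 18.8 CPM under the pair, 21.2 and 20.4 CPM under BI-D1870 alone and 137 and 128 CPM under DMSO (-2.79, SE 0.057, adjusted p = 7.5e-18). The Rhesus genes RHD (-1.17) and RHAG (-0.85), the glycophorin GYPC (-1.04) and the ankyrin ANK1 (-0.64) fell. Haem and iron genes were mixed, with 4 rises and 10 falls among 20 and a median of -0.11. ALAS2, the erythroid enzyme that starts haem synthesis (-0.63), and UROD (-0.54) fell, and ALAD, the next enzyme after ALAS2, rose (0.71).

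All 18 erythroid and megakaryocyte transcription factors were called, 13 lower and 5 higher, with a median of -0.44. MYB, which keeps progenitors dividing (ENSG00000118513, chr6:135181315-135219173), had 56.5 and 53.5 CPM under the pair, 59.1 and 56.4 CPM under BI-D1870 alone and 176 and 179 CPM under DMSO (-1.69, SE 0.047, adjusted p = 6.5e-16). IKZF1 (-1.71), the gamma globin repressor BCL11A (-1.55) and LMO2 (-1.01) fell by 2-fold or more. The master regulator GATA1 fell slightly (-0.24), while GATA2 rose, with 1364 and 1330.3 CPM under the pair and 1033 and 960.0 CPM under DMSO (0.44, SE 0.039, adjusted p = 1.3e-08), and TAL1 rose (0.30). Stem and progenitor genes fell in 9 of 14 cases and rose in 3, with a median of -0.51. KIT, the stem cell factor receptor, had 28.8 and 27.9 CPM under the pair, 33.8 and 31.6 CPM under BI-D1870 alone and 65.6 and 62.6 CPM under DMSO (-1.18, SE 0.058, adjusted p = 3.1e-12), and CD34, at a low level in all groups, fell (-2.75).

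Most platelet receptor genes fell. Of 18 platelet receptor genes 13 fell and 2 rose, with a median of -0.64. Against BI-D1870 alone 5 of the 18 were called higher and 2 lower, with a median of 0.15. Over all genes tested these shares were 2.22% higher and 2.48% lower. SELP, which encodes P-selectin (ENSG00000174175, chr1:169588849-169630193), had 19.2 and 19.7 CPM under the pair, 17.1 and 15.4 CPM under BI-D1870 alone and 107 and 99.9 CPM under DMSO (-2.42, SE 0.062, adjusted p = 2e-16). GP9, a subunit of the von Willebrand factor receptor (ENSG00000169704, chr3:129060767-129062406), had 47.1 and 44.9 CPM under the pair, 33.5 and 32.6 CPM under BI-D1870 alone and 125 and 115 CPM under DMSO (-1.38, SE 0.053, adjusted p = 7.7e-14), and here the pair lay above BI-D1870 alone (0.48, SE 0.056, adjusted p = 3.2e-05). GP5 (-2.53) and PECAM1 (-1.07) fell, the integrin ITGA2B fell slightly (-0.15), and the ATP receptor P2RX1 rose (0.92). Platelet granule and cytoskeleton genes showed 8 falls and 5 rises among 16, with a median of -0.36. The platelet tubulin TUBB1 (-1.88), the matrix protein THBS1 (-1.37) and the chemokine PF4 (-1.18) fell. TGFB1, stored in platelets, rose, with 2329 and 2136 CPM under the pair and 1197 and 1126 CPM under DMSO (0.94, SE 0.044, adjusted p = 1.5e-12), and CLU, the chaperone clusterin, had 463 and 452 CPM under the pair, 349 and 341 CPM under BI-D1870 alone and 247 and 256 CPM under DMSO (0.86, SE 0.038, adjusted p = 6.9e-13).

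Several myeloid genes fell. SPI1, the myeloid transcription factor (ENSG00000066336, chr11:47354860-47378576), had 59.6 and 53.8 CPM under the pair, 42.6 and 41.2 CPM under BI-D1870 alone and 120.03 and 113 CPM under DMSO (-1.04, SE 0.054, adjusted p = 6.4e-12), below DMSO but above BI-D1870 alone (0.44, SE 0.056, adjusted p = 8.6e-05). The proteoglycan VCAN fell (-3.10). In all, 7 of 16 tested myeloid and monocyte genes fell and 2 rose, with a median of -0.31. The lower count was 4 without replicate 2 of the pair, and the higher count 1 without DMSO replicate 1 or replicate 1 of the pair. Of 9 tested lymphoid marker genes 7 fell and none rose, with a median of -0.95. CD2 had 3.65 and 3.01 CPM under the pair, 2.70 and 2.98 CPM under BI-D1870 alone and 14.7 and 15.8 CPM under DMSO (-2.20, SE 0.13, adjusted p = 2.6e-11). The defining markers CD3D, MS4A1 and ELANE were at 0 counts in all 6 libraries. The summed level of the 9 lymphoid genes was 40.3 and 41.1 CPM under the pair, 31.9 and 34.7 CPM under BI-D1870 alone and 78.7 and 82.9 CPM under DMSO.

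Inflammatory and antigen presentation genes were mostly lower. Of 15 chemokine and cytokine genes 7 fell and 1, TGFB1, rose, with a median of -1.16, and IL1B, LIF and CSF1 (-2.74), the macrophage growth factor, fell by the most. Of 21 NF-kappaB target genes 12 fell and 3 rose, with a median of -0.38; TNFAIP3, the feedback inhibitor of NF-kappaB, had 7.97 and 6.51 CPM under the pair, 7.90 and 6.78 CPM under BI-D1870 alone and 26.8 and 23.7 CPM under DMSO (-1.80, SE 0.11, adjusted p = 4.7e-11). Of 32 interferon-stimulated genes 17 fell and 5 rose, with a median of -0.37. Along with GBP1, the sensor OAS1 (-1.66) and XAF1 (-1.36) fell, whereas IRF7, a transcription factor of the interferon response, had 52.4 and 48.1 CPM under the pair, 46.4 and 45.9 CPM under BI-D1870 alone and 14.4 and 15.2 CPM under DMSO (1.76, SE 0.065, adjusted p = 5.1e-14).

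MHC class I genes fell in 12 of 15 cases and rose in none, with a median of -0.79. Against BI-D1870 alone 9 of the 15 were also called lower, beside 2.48% of all genes tested. HLA-B, a class I heavy chain (ENSG00000234745, chr6:31269491-31357188), had 104 and 100.1 CPM under the pair, 169.8 and 172 CPM under BI-D1870 alone and 245 and 226 CPM under DMSO (-1.21, SE 0.045, adjusted p = 5.2e-14; -0.75, SE 0.045, adjusted p = 3.9e-09 against BI-D1870). HLA-C had 158 and 155 CPM under the pair, 226 and 227 CPM under BI-D1870 alone and 289 and 275 CPM under DMSO (-0.85, SE 0.04, adjusted p = 1.4e-12). The peptide transporter TAP1 (-0.79), the immunoproteasome subunits PSMB8 (-1.23) and PSMB9 (-1.04) and the class I activator NLRC5 (-0.96) fell, and the light chain B2M fell by less (-0.27). The class I heavy chains are similar and highly variable, so their reads may be split or lost. MHC class II genes fell in 6 of 9 cases and rose in none, with a median of -0.78. Their activator CIITA fell (-2.01), as did the invariant chain CD74 (-0.40), and none of the 9 was called against BI-D1870.

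**Figure D3:**
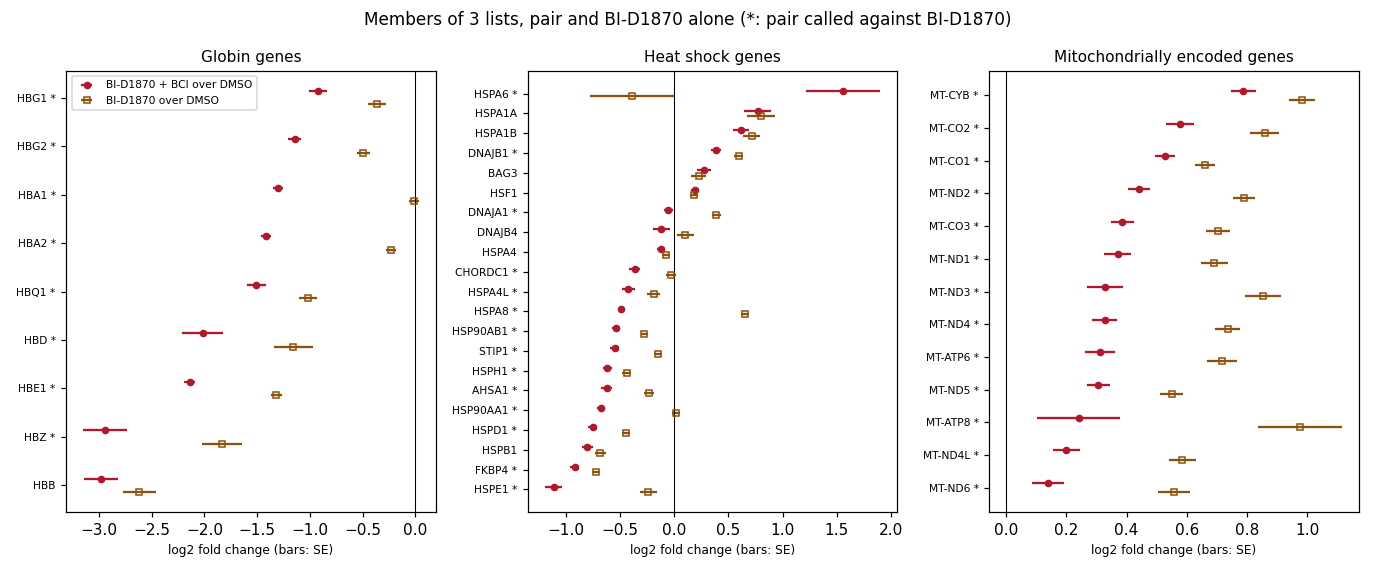
For each tested member of 3 lists (globin, heat shock and mitochondrially encoded genes), the filled circle gives the log2 fold change of the pair over DMSO and the open square that of BI-D1870 alone over DMSO, both with their SE as bars; an asterisk marks a member called between the pair and BI-D1870. Both contrasts share the DMSO libraries. The circles lie left of the squares for the globin genes and the mitochondrially encoded genes, while HSPA6 is the heat shock gene whose circle lies furthest to the right.

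Heat shock genes mostly fell, and many were also lower than under BI-D1870 alone. Of all genes tested, 2.48% were called lower than under BI-D1870 alone and 2.22% higher. Of 21 tested genes 13 fell and 6 rose against DMSO, with a median of -0.42, and 13 were lower and 1 higher than under BI-D1870 alone; without replicate 2 of BI-D1870 none was higher. The promoters of HSPA8 and HSP90AA1, which fell, and of HSPA6, which rose, are shown with the heat shock element, the site of the heat shock factor HSF1, in capitals. The letters searched were GAA, its reverse complement TTC and GAA again, each 2 bases apart, on both strands. Of the 19 listed genes with a RefSeq promoter 7 held a match, as did 0.490% of all 35116 RefSeq promoters of 300 bases. The first count is by gene, with a match in any of its promoters, and the second is by promoter. The windows are the 120 bases before an annotated start (RefSeq, GRCh38.p14), read 5′ to 3′ on the strand of the gene. HSPA8 lies at chr11:123062137-123062256 on the minus strand, HSP90AA1, from the second of its 2 listed starts, at chr14:102087045-102087164 on the minus strand, and HSPA6 at chr1:161524420-161524539 on the plus strand.
HSPA8: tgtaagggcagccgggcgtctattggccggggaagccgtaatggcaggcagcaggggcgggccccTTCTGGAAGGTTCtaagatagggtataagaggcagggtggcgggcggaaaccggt
HSP90AA1: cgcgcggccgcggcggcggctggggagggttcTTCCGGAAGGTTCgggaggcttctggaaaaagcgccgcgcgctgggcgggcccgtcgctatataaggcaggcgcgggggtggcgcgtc
HSPA6: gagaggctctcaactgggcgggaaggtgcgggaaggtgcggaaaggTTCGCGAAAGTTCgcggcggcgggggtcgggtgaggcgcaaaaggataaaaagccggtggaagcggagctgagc
The first base of the match lies 55, 88 and 74 bases before the start in HSPA8, HSP90AA1 and HSPA6. A match of letters is a description and does not show that a factor binds there.

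HSPA8, the constitutive HSP70 chaperone (ENSG00000109971, chr11:123057489-123063230), had 1792 and 1755 CPM under the pair, 3875 and 3949.5 CPM under BI-D1870 alone and 2455 and 2518 CPM under DMSO (-0.49, SE 0.033, adjusted p = 3.3e-10). The pair was lowest and BI-D1870 alone highest, with DMSO between them (-1.14, SE 0.034, adjusted p = 7e-14 against BI-D1870). HSP90AA1, the inducible HSP90 (ENSG00000080824, chr14:102080738-102139699), had 1042 and 986 CPM under the pair, 1649.8 and 1631 CPM under BI-D1870 alone and 1614 and 1621 CPM under DMSO (-0.67, SE 0.036, adjusted p = 9.5e-12), and here BI-D1870 alone lay close to DMSO (-0.69, SE 0.036, adjusted p = 3.2e-10 against BI-D1870). HSPE1, the mitochondrial cochaperonin (ENSG00000115541, chr2:197499994-197503457), had 9.31 and 9.80 CPM under the pair, 17.4 and 17.6 CPM under BI-D1870 alone and 20.7 and 20.6 CPM under DMSO (-1.11, SE 0.082, adjusted p = 8.8e-10; -0.87, SE 0.082, adjusted p = 2.2e-06 against BI-D1870). Its partner HSPD1 (-0.75), HSP90AB1 (-0.54), the cochaperones FKBP4 (-0.92) and STIP1 (-0.55) and the small heat shock protein HSPB1 (-0.80) fell too. The opposite was seen in HSPA6, a strictly inducible HSP70 (ENSG00000173110, chr1:161524540-161526910), which had 1.93 and 1.45 CPM under the pair, 0.599 and 0.284 CPM under BI-D1870 alone and 0.603 and 0.541 CPM under DMSO (1.56, SE 0.34, adjusted p = 0.00078). Its counts were low. Its call against BI-D1870 (1.95, SE 0.35, adjusted p = 0.0023) was lost without replicate 2 of BI-D1870, and without replicate 1 of BI-D1870 the difference was 2.56. HSPA1A (0.77), which is nearly identical to HSPA1B, and DNAJB1 (0.39) rose. Reads of HSPA8 may be shared with its processed pseudogenes, of which HSPA8P1, HSPA8P8 and HSPA8P9 were also among the genes furthest below BI-D1870 alone (-1.09, -1.04 and -1.13).

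Ferritin light chain and NQO1 were higher under the pair than in both other groups. FTL, the light chain of the iron store ferritin (ENSG00000087086, chr19:48965301-48966878), had 4219 and 3965 CPM under the pair, 1894 and 1886 CPM under BI-D1870 alone and 1425 and 1399 CPM under DMSO (1.54, SE 0.037, adjusted p = 7.2e-17; 1.11, SE 0.036, adjusted p = 1.9e-13 against BI-D1870). FTH1, the heavy chain, had 656 and 479 CPM under the pair, 308 and 491 CPM under BI-D1870 alone and 308 and 188 CPM under DMSO, with replicates far apart (1.19, SE 0.18, adjusted p = 1.6e-05), and its difference from BI-D1870, 0.50, SE 0.18, adjusted p = 0.13, did not pass the test. Without either DMSO replicate FTH1 was called higher than under BI-D1870 (adjusted p = 0.012 each time). The pseudogenes FTLP2, FTLP3 and FTLP17 followed FTL (1.70, 1.54 and 1.49), and their reads may belong to FTL. NQO1, a quinone reductase and a standard target of NRF2, the factor of the antioxidant response (ENSG00000181019, chr16:69706996-69726951), had 11.7 and 11.9 CPM under the pair, 4.85 and 3.97 CPM under BI-D1870 alone and 3.53 and 3.87 CPM under DMSO (1.67, SE 0.13, adjusted p = 1.6e-09; 1.42, SE 0.13, adjusted p = 1.1e-06 against BI-D1870). OSGIN1, another NRF2 target, rose (1.02). HMOX1, the haem-degrading enzyme (ENSG00000100292, chr22:35380361-35394214), went the other way and had 3.87 and 4.58 CPM under the pair, 9.75 and 8.64 CPM under BI-D1870 alone and 6.10 and 6.37 CPM under DMSO (-0.56, SE 0.13, adjusted p = 0.0013; -1.12, SE 0.13, adjusted p = 2.5e-05 against BI-D1870). The cystine transporter SLC7A11 fell as well (-1.12). The NRF2 list held 8 rises and 6 falls among 18 genes, with a median of 0.10.

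GSTP1, a glutathione transferase, had the second largest rise over BI-D1870 alone among called genes that averaged 4 CPM or more and whose libraries did not overlap between both groups. Its promoter (chr11:67583692-67583811, plus strand, GRCh38.p14) is shown because it holds a match to the letters of the antioxidant response element, searched as TGACNNNGC on both strands. The match begins 66 bases before the start and is in capitals here. It does not show that a factor binds there. These letters were in 13.3% of all RefSeq promoters and in 4 of the 12 genes of the NRF2 list that have one (GCLM, PGD, PIR and TXNRD1). The share is again by promoter and the count by gene. NQO1 and FTL were not among these 4 genes. Only RefSeq promoters were searched, and some listed genes have none, so this does not show that NQO1 or FTL lacks the element. An element further from the start would have been missed. GSTP1 is not in the NRF2 list.
GSTP1: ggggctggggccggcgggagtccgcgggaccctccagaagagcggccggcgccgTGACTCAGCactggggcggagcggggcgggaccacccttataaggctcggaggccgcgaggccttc
GSTP1 (ENSG00000084207, chr11:67583595-67586656) had 28.9 and 29.4 CPM under the pair, 12.99 and 12.97 CPM under BI-D1870 alone and 25.6 and 22.3 CPM under DMSO, so BI-D1870 alone lay below DMSO and the pair above it (0.29, SE 0.075, adjusted p = 0.0035; 1.17, SE 0.078, adjusted p = 1.9e-08 against BI-D1870). Its small rise over DMSO was not called without DMSO replicate 2. ECM1, a secreted matrix protein, had 6.09 and 5.73 CPM under the pair, 2.96 and 2.88 CPM under BI-D1870 alone and 5.19 and 5.21 CPM under DMSO (1.02, SE 0.14, adjusted p = 0.00016 against BI-D1870), and its difference from DMSO did not pass the test. RAB37, a vesicle trafficking GTPase, had 23.4 and 21.6 CPM under the pair, 12.3 and 11.2 CPM under BI-D1870 alone and 27.8 and 25.3 CPM under DMSO (0.94, SE 0.083, adjusted p = 1.1e-06 against BI-D1870), with the pair between the other groups. AL390728.1 had 2.28 and 2.81 CPM under the pair, 6.46 and 5.66 CPM under BI-D1870 alone and 2.96 and 3.26 CPM under DMSO and was lower under the pair than under BI-D1870 alone (-1.25, SE 0.16, adjusted p = 9e-05). The list of metallothionein genes, which also holds the zinc exporter SLC30A1, showed 3 falls and no rise among 6, with a median of -0.27. Those that fell were MT1E (-0.97), MT1X (-0.95) and SLC30A1 (-0.27). The call of MT1E was lost without replicate 2 of the pair, its change being -1.56 without replicate 1 of the pair, and that of SLC30A1 without either DMSO replicate or replicate 1 of the pair. MT2A had 79.7 and 72.4 CPM under the pair, 104 and 105 CPM under BI-D1870 alone and 73.1 and 65.6 CPM under DMSO. Its difference from DMSO did not pass the test (0.13, SE 0.056, adjusted p = 0.057), but did without DMSO replicate 1, replicate 2 of BI-D1870 or replicate 2 of the pair, which makes 1 rise in the list, and it lay below BI-D1870 alone (-0.45, SE 0.055, adjusted p = 5.5e-05).

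Genes of autophagy and lysosomes rose together. Of 31 tested, 23 rose (74.2%, against 22.6% of all genes and 29.7% of protein-coding genes) and 2 fell, with a median of 0.40. NEU1, a lysosomal sialidase (ENSG00000204386, chr6:31857659-31862906), had 72.2 and 71.8 CPM under the pair, 68.2 and 72.0 CPM under BI-D1870 alone and 21.7 and 24.9 CPM under DMSO (1.63, SE 0.062, adjusted p = 6.6e-14). SQSTM1, the autophagy receptor p62 (ENSG00000161011, chr5:179806398-179838078), had 128 and 135 CPM under the pair, 124 and 131 CPM under BI-D1870 alone and 68.6 and 65.0 CPM under DMSO (0.98, SE 0.048, adjusted p = 2.7e-12). In both genes the drug groups overlapped and lay above DMSO. CTSD, the protease cathepsin D (ENSG00000117984, chr11:1752752-1764573), had 76.6 and 73.8 CPM under the pair, 49.4 and 50.8 CPM under BI-D1870 alone and 37.4 and 40.1 CPM under DMSO and rose further under the pair (0.96, SE 0.054, adjusted p = 1.8e-11; 0.59, SE 0.053, adjusted p = 1.2e-06 against BI-D1870). MAP1LC3B (0.91), NPC2 (0.98) and CTSB (0.65) rose, while TFEB, a transcription factor of lysosomal genes, at a low level in all groups, fell (-0.98).

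Genes of glycolysis and the hypoxia response fell in 22 of 29 cases and rose in 2, with a median of -0.53; without DMSO replicate 1 the higher count was 4. ENO1, the enolase with the most counts of the list (ENSG00000074800, chr1:8861000-8879250), had 2152 and 2299.7 CPM under the pair, 2093 and 2026 CPM under BI-D1870 alone and 3229 and 3199.9 CPM under DMSO (-0.53, SE 0.037, adjusted p = 4e-10). ALDOC (-1.18), PFKM (-0.97), the mitophagy gene BNIP3 (-0.97) and the angiogenic factor VEGFA (-1.06) fell more. The list of FOXO target and AKT feedback genes had 6 rises and 7 falls among 16, with a median of -0.19. Its largest called changes were the falls of DEPTOR (-2.17), ERBB3 (-1.99) and IRS1 (-1.45). CITED2 fell by less (-0.78), and SESN3 (1.13) and ARRDC4 (0.97) rose.

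Lipid and amino acid pathways were split. Of 24 sterol synthesis genes 14 fell and 8 rose, with a median of -0.29. INSIG1, the brake on sterol synthesis (-0.80), and HMGCS1 (-0.68) fell, and the sterol reductase TM7SF2 rose, with 45.4 and 43.1 CPM under the pair and 16.5 and 16.4 CPM under DMSO (1.43, SE 0.063, adjusted p = 5.9e-13). Of 12 fatty acid synthesis genes 7 fell and 2 rose, with a median of -0.25. The sterol exporters ABCA1 (-1.54) and ABCG1 (-1.24) fell, in a list of 3 falls and 2 rises among 9, with a median of 0.064; 1 rose without DMSO replicate 2 or without either replicate of the pair. Of 27 ATF4 response genes 14 fell and 9 rose, with a median of -0.27. The stress regulators ATF5 (1.19) and DDIT3 (0.94) and the amino acid transporter SLC7A5 (0.61) rose, and DDIT4 (-1.17) and TRIB3 (-0.59) fell.

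Endoplasmic reticulum chaperones fell, in a list of 11 falls and 4 rises among 20, with a median of -0.20. HSP90B1 had 391 and 374 CPM under the pair, 486 and 456 CPM under BI-D1870 alone and 575 and 602 CPM under DMSO (-0.62, SE 0.042, adjusted p = 2.5e-10; -0.30, SE 0.042, adjusted p = 0.00018 against BI-D1870). HSPA5, the chaperone BiP, had 228 and 223 CPM under the pair, 301 and 285 CPM under BI-D1870 alone and 257 and 289.5 CPM under DMSO (-0.28, SE 0.048, adjusted p = 7.5e-05). Of the 20 genes, 7 were lower than under BI-D1870 alone, beside 2.48% of all genes tested. The last count was 4 without either replicate of BI-D1870 and without replicate 2 of the pair. Of 26 proteasome genes 5 rose and 6 fell, none beyond 0.27 on the log2 scale, and the lower count was 0 without replicate 2 of the pair, 1 without DMSO replicate 2, and 2 without replicate 1 of the pair or replicate 2 of BI-D1870. The higher count was 3 without either DMSO replicate.

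All mitochondrially encoded genes but one rose against DMSO, and by less than under BI-D1870 alone. Of 13, 12 rose and none fell, with a median of 0.33, and MT-ATP8 (0.24) was not called, except without DMSO replicate 1 or replicate 2 of the pair. All 13 were called lower than under BI-D1870 alone, beside 2.48% of all genes tested. MT-CYB had 2875 and 2589 CPM under the pair, 3093 and 3157 CPM under BI-D1870 alone and 1545 and 1619.7 CPM under DMSO (0.79, SE 0.043, adjusted p = 1.1e-11). MT-ND1 had 2584 and 2265 CPM under the pair, 3008 and 3049 CPM under BI-D1870 alone and 1873 and 1878 CPM under DMSO (0.37, SE 0.045, adjusted p = 9.9e-07; -0.32, SE 0.045, adjusted p = 2e-04 against BI-D1870). These genes move with the share of mitochondrial counts given above, and the part of that share in other results was not tested. Nuclear genes of the respiratory chain did not follow them, with 12 falls and 2 rises among 28 and a median of -0.10; the higher count was 4 without replicate 1 of the pair.

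**Figure D4:**
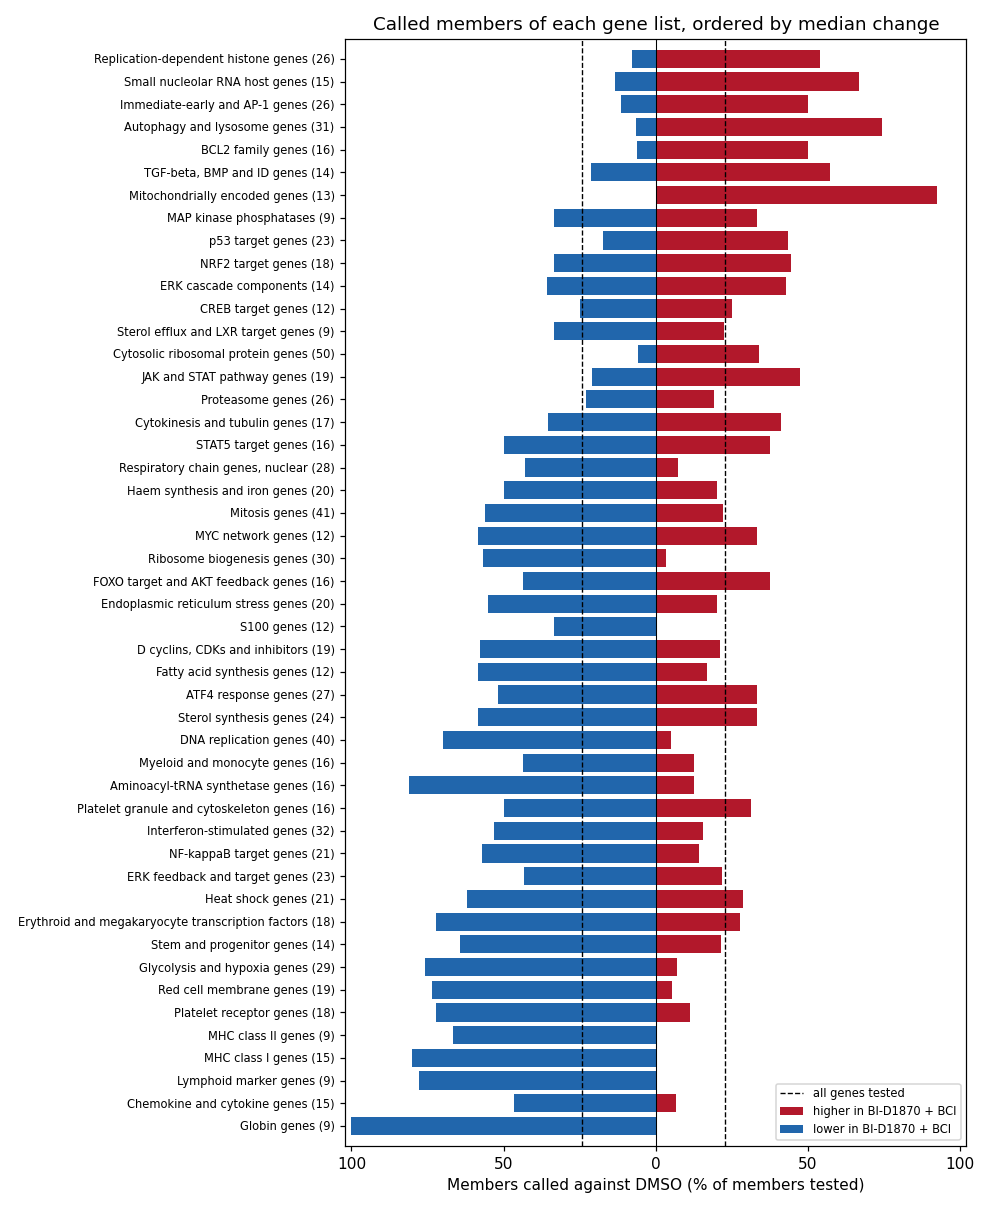
For each list with at least 9 tested members (number in brackets), the red bar gives the percent of members called higher and the blue bar the percent called lower under BI-D1870 + BCI against DMSO; dashed lines mark 22.6% and 24.3%, the shares among all genes tested. Lists are ordered by their median log2 fold change, from replication-dependent histone genes at the top to globin genes at the bottom.

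Taken over all genes, the pair was much closer to BI-D1870 alone than to DMSO in the number of genes called. Against BI-D1870, 1004 of 21328 genes were called (4.71%), 474 higher (2.22%) and 530 lower (2.48%), and 44 of them differed by 2-fold or more, 20 higher and 24 lower. The count was 367 without BI-D1870 replicate 1, 325 without BI-D1870 replicate 2, 565 without replicate 1 of the pair and 393 without replicate 2 of the pair. BI-D1870 alone against DMSO gave 10045 calls (47.1%), from the same DMSO libraries. Among called genes that averaged 4 CPM or more and whose libraries did not overlap between the pair and BI-D1870, the 8 largest rises were those of NQO1, GSTP1, FTLP2, FTLP3, FTL, ECM1, RAB37 and FTLP17, and the 8 largest falls those of HBA1, AL390728.1, HBA2, HSPA8, HSPA8P9, HMOX1, HSPA8P1 and HSPA8P8.

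BCI alone is set beside these genes at its own times, 4 h and 48 h, against its own DMSO libraries, and no comparison with the 24 h libraries was made. At 4 h, 2354 of 21908 genes were called, and in the libraries labelled 48 h none was (edgeR, with 316 at an unadjusted p under 0.05). That fit held the group and no replicate effect, and some replicates labelled 48 h lay far apart. MALAT1 had 216 and 585 CPM there under BCI and 262 and 898 CPM under DMSO. The absence of calls at 48 h therefore does not show that BCI had no effect. HMOX1 had 1356 and 1191 CPM under BCI and 10.0 and 9.27 CPM under DMSO at 4 h, a change of 7.05 (adjusted p = 6.9e-07). NQO1 had 9.62 and 8.91 CPM under BCI and 2.29 and 2.48 CPM under DMSO (1.96, adjusted p = 0.0013), and FTL had 2112 and 2001 CPM under BCI and 1122 and 1098 CPM under DMSO (0.89, adjusted p = 0.15). HMOX1 and NQO1 were thus higher under BCI at 4 h, and FTL did not pass the test there. The spread in that test was shared by all 8 libraries of the BCI fit. Among those labelled 48 h, FTL had 890 and 1582 CPM under BCI and 838 and 1949 CPM under DMSO, so replicates lay far apart. HSP90AA1 had 3851 and 3802 CPM under BCI and 1125 and 1119 CPM under DMSO (1.77, adjusted p = 1.3e-06). HSPA8 had 10467 and 9689 CPM under BCI and 5162 and 5222 CPM under DMSO (0.96, adjusted p = 0.17). Its replicates labelled 48 h also lay far apart, at 2324 and 1016 CPM under BCI and 2230 and 989 CPM under DMSO. For FTL and HSPA8 the 4 h libraries did not overlap between BCI and DMSO, so a missing call does not show them unchanged. At 4 h DUSP6 had 14.02 and 13.3 CPM under BCI and 28.0 and 26.8 CPM under DMSO (-1.003, adjusted p = 0.00041), and PIM1 had 433 and 419 CPM under BCI and 704 and 704 CPM under DMSO (-0.73, adjusted p = 0.0099). Both fell. In the libraries labelled 48 h, headed 24 h in the table, the changes of HMOX1, NQO1, HSP90AA1, DUSP6 and PIM1 under BCI were -0.40, 0.16, 0.063, -0.025 and -0.0056, and none was called.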

How the data were processed

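RNA of HEL cells was sequenced on an Illumina instrument, per the labels' protocols. The authors deposited whole-number read counts per gene. Demultiplexing with bcl2fastq, alignment with STAR 2.5.1a to GRCh38 and edgeR are named in the submitters' processing notes; which program counted the reads, with what annotation and whether by strand, is not given in the sources used here. Overlapping or antisense genes can therefore share reads. Among counts of 1 to 20, 65.8 to 68.3% were even. The table of 6 libraries (DMSO, BI-D1870, BI-D1870 with BCI) has 55209 lines and 55093 genes after 116 repeated lines were merged. Totals were 54141164 to 70128404 counts.

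All 6 libraries were fitted together with edgeR 4.0.16 (R 4.3.3; TMM scaling, filterByExpr by group, quasi-likelihood F test, Benjamini-Hochberg adjustment over 21328 genes, threshold 0.05); the fit left 3 residual degrees of freedom. The SE is the absolute log2 fold change divided by the square root of F. The BCI table was fitted in the same way on its own; its headings give 24 h where the labels give 48 h, and the labels were used. Gene positions are from GENCODE 29 (GRCh38) and promoters from RefSeq (GRCh38.p14). No batch is given in the labels. The script was tested on simulated data.

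The groups and gene lists were chosen with earlier results of these data known. Genes named by rule were the 10 followed genes, the 15 largest called rises and falls against DMSO and the 8 against BI-D1870 (mean of at least 4 CPM, groups not overlapping), and in each list up to 6 called members by size plus the most abundant. Other genes, such as STAT5B, GATA1, MCM2 to MCM4 and HSPB1, were named after their values were seen. Alternatives were DESeq2 1.42.0 and its size factors, limma-voom (limma 3.58.1), other filters (none, or 1 CPM), halved counts, a minimum fold change of 1.5, only the libraries compared, a replicate block and leaving out each library. Both replicates of a group differed by more than counting noise (chi-square per degree of freedom 5.12 to 7.52) and were counted as separate samples.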

Additional observations from a re-analysis of the deposited data

How the results depend on the processing

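The number of genes called, the pair against DMSO, was 9019 to 10068 with other scaling, filters, tests, halved counts or only the 4 libraries, against 9992. Requiring a fold change of at least 1.5 gave 2343 genes (846 higher, 1497 lower), 13 for the pair against BI-D1870 (4 higher, 9 lower) and 2319 for BI-D1870 against DMSO (771 higher, 1548 lower), since that test asks for more than a difference from 0. Without 1 library each in turn, the pair against DMSO gave 8378 to 9856 calls (4078 to 5059 higher, 3952 to 5087 lower). The pair against BI-D1870 then gave 325 to 1229 calls (132 to 592 higher, 188 to 638 lower), and BI-D1870 against DMSO 8381 to 9840 (4196 to 5154 higher, 3984 to 5026 lower). With a replicate block the counts were 10021, 1187 and 10061. The deviations of same-numbered libraries from their group had correlations of -0.029, 0.119 and 0.005. On the second principal component replicate 1 lay above replicate 2 in every group. Whether the numbers pair the libraries stays undecided. No gene named in the text reversed under an alternative. With 2 libraries per group, a change in a gene of few counts may be missed, and the 6-library fit has 3 residual degrees of freedom beside a prior of 15.7. Whether the duplicates are separate cultures was not tested, and no kinase activity or protein was measured.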

Other observations

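Calls were more frequent among protein-coding genes than among noncoding ones. Of 13937 tested protein-coding genes 29.7% were called higher and 31.3% lower under the pair against DMSO, and of 3354 long noncoding RNA genes 351 were called higher and 543 lower.

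A few lists not described above moved as follows. Genes of TGF-beta, BMP and ID signalling rose in 8 of 14 cases and fell in 3, with a median of 0.39. The inhibitory SMAD7 (2.55) and the SMAD repressors SKIL (1.62) and SKI (0.99) rose, and ID3 fell (-0.92) while lying above BI-D1870 alone (0.75, SE 0.11, adjusted p = 4e-04). Of 8 drug efflux genes 5 fell and 1 rose, with a median of -0.21, and the transporters ABCC3 (-1.91) and ABCC4 (-1.06) fell. In the list of S100 genes, which also holds the S100P-binding protein S100PBP, 4 of 12 fell and none rose, with a median of -0.21. S100B (-1.92), S100A4 (-0.46) and S100PBP (-0.30) were among those that fell. Of 6 tested epithelial and stromal genes 2 rose and 1 fell.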
